A study of Brassica rapa with 6 samples.

Results

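Chinese cabbage (Brassica rapa) leaf and petiole were compared by small RNA sequencing, and 42 predicted small RNAs of 24 nt that begin with C, G or T are described here. They were selected on the mean normalized count over all 6 libraries, at least 5, among the 1011 sequences of the table with a predicted (PC) name, 24 bases and a first base other than A. Their levels are therefore a description. The leaf against petiole contrast was not part of the rule, although a sequence can reach the mean through 1 tissue. Of 75 predicted 24 nt sequences with these first bases, 42 reached that mean, 4 with C, 24 with G and 14 with T. The plants were wild type and grown in a greenhouse, and each tissue, leaf or petiole (the stalk that carries the blade), was represented by 3 libraries. No treatment or age is given in the labels, and nothing says whether a library came from 1 plant or from pooled plants. The tissues hold many cell types, so fewer cells that make a small RNA and less of it per cell cannot be told apart.

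Plant small RNAs of this length are mostly small interfering RNAs. In Arabidopsis they are cut by the Dicer-like enzyme DCL3 from double-stranded RNA, made by RNA polymerase IV and the RNA-dependent RNA polymerase RDR2, and they guide DNA methylation, mainly over transposons and repeats. The Argonaute protein that takes up a small RNA depends partly on its first base: in Arabidopsis AGO4 favours A, AGO1 favours U (written T here) and AGO5 favours C. Products of DCL3 often occur as both strands of a duplex, whose 3′ ends stand out by a pair of bases. No Argonaute binding was measured here, and whether the 42 sequences are small interfering RNAs or miRNAs was not tested.

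Of the 42 sequences, 23 had an exact reverse complement of at least 16 bases elsewhere in the table. No genome was used, so whether both strands of a locus were sequenced was not tested. The word strand below refers to complementarity of sequence only. Capitals mark the complementary run in the following pairs, each read 5′ to 3′; they are shown because they hold an abundant member, join members to each other, or match over all 24 bases.
PC-3p-433_3751: TCACAGCGCTGCAGCGtattgacc
PC-3p-32036_132: ggtgCGCTGCAGCGCTGTGAacct
PC-3p-7117_460: TCAACGTCTGATCTTCCCGGGATg
PC-5p-1834_1331: ATCCCGGGAAGATCAGACGTTGAt
PC-3p-100210_47: TGAGATATGGAGTTGGGTTGGAgc
PC-5p-41989_105: TCCAACCCAACTCCATATCTCAct
PC-5p-35277_121: GAAACCGTCTCTTAACTTTTAACt
PC-3p-78357_60: GTTAAAAGTTAAGAGACGGTTTCt
PC-3p-38541_113: GAGGAAAAAATAGCAATCTCTATT
PC-5p-213506_17: AATAGAGATTGCTATTTTTTCCTC
The members PC-3p-100210_47 and PC-5p-41989_105 pair over 22 bases and leave 2 unpaired bases at each 3′ end. PC-3p-7117_460 and the A-starting PC-5p-1834_1331 pair over 23 bases with overhangs of 1 base, and PC-3p-38541_113 pairs with PC-5p-213506_17 over all 24 bases with blunt ends.

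Other members overlap a sequence of the same strand. In this set capitals mark the shared run. PC-5p-112192_41 and PC-3p-45273_99 are longer or shifted copies of sequences with other first bases. The other pairs share the marked run but differ in bases next to it, so they are related sequences and not copies.
PC-5p-112192_41: cttTATGTTCGTCGGAATTTCCTC
PC-5p-5041_607: TATGTTCGTCGGAATTTCCTC
PC-3p-45273_99: GAGGAACTCTATTATAGAGGCATa
PC-3p-26657_154: aGAGGAACTCTATTATAGAGGCAT
PC-3p-51862_88: gagAAATAGAGTACCATTGGAGca
PC-3p-147188_29: tctaAAATAGAGTACCATTGGAGt
PC-5p-205434_18: ctaggaGTGGACCTAAGAATAAGT
PC-5p-42641_104: ggGTGGACCTAAGAATAAGTctt
PC-3p-157179_27: caagaaTACTCTATATTTCACTct
PC-3p-21910_181: aataagatTACTCTATATTTCACT
The C-starting PC-5p-112192_41 is a predicted 21 nt sequence with 3 more bases at the 5′ end. The G-starting PC-3p-45273_99 lies 1 base downstream of an A-starting 24 nt sequence.

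The leading G member pairs with an A-starting sequence less perfectly. Capitals mark the 20 of 22 positions that pair, 2 of them as G:U, in a duplex with 2-base 3′ overhangs.
PC-5p-3977_732: GATTGTTAGTATAtAACTTTGatt
PC-3p-8640_390: aCAAAGTTtTATACTGATAATCtg
The remaining sequences that the results turn on are shown with the first base as a capital.
PC-5p-17428_218: Gagcctcgaacccagaacctcatc
PC-5p-61942_75: Gtagggttccttagcttttaacta
PC-3p-78403_60: Tgtaggttcaccaatcaataggat
PC-3p-79429_59: Tggagtgggattggagatgctcta

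The values are the authors' normalized read counts, and the scale of the libraries bears on every comparison. Summed over the 1011 sequences, the libraries held 772667 to 803819 in leaf and 428796 to 448448 in petiole, so the mean total was 1.81 times higher in leaf. Low values lay on a regular step of 0.904 to 1.06 per library, with 71.4% to 77.1% of values under 60 at whole steps and 98.4% to 99.7% at multiples of 0.5 steps. Whether a step or a part of it is 1 read is not known, so no read depth is given. No value lay near 1 step and at most 1 per library near 2 steps, so a 0 is given as listed at 0 and is not taken as absence. Values are on the deposited scale unless equal totals are named; there all 6 libraries were scaled to equal totals, which raises every petiole value against leaf.

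The 42 sequences were a small part of the table, and most of them were rare. Together they made up 0.302% ± 0.00951 of the summed count in leaf and 0.400% ± 0.020 in petiole (SD, n = 3 each). Their median mean count was 11.1, and 19 of 42 had a mean under 10, which is few steps of the scale. Only 5 reached a mean of 50, and 1 of these, PC-3p-433_3751, held 46.7% of the summed mean of the 42.

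**Figure D1:**
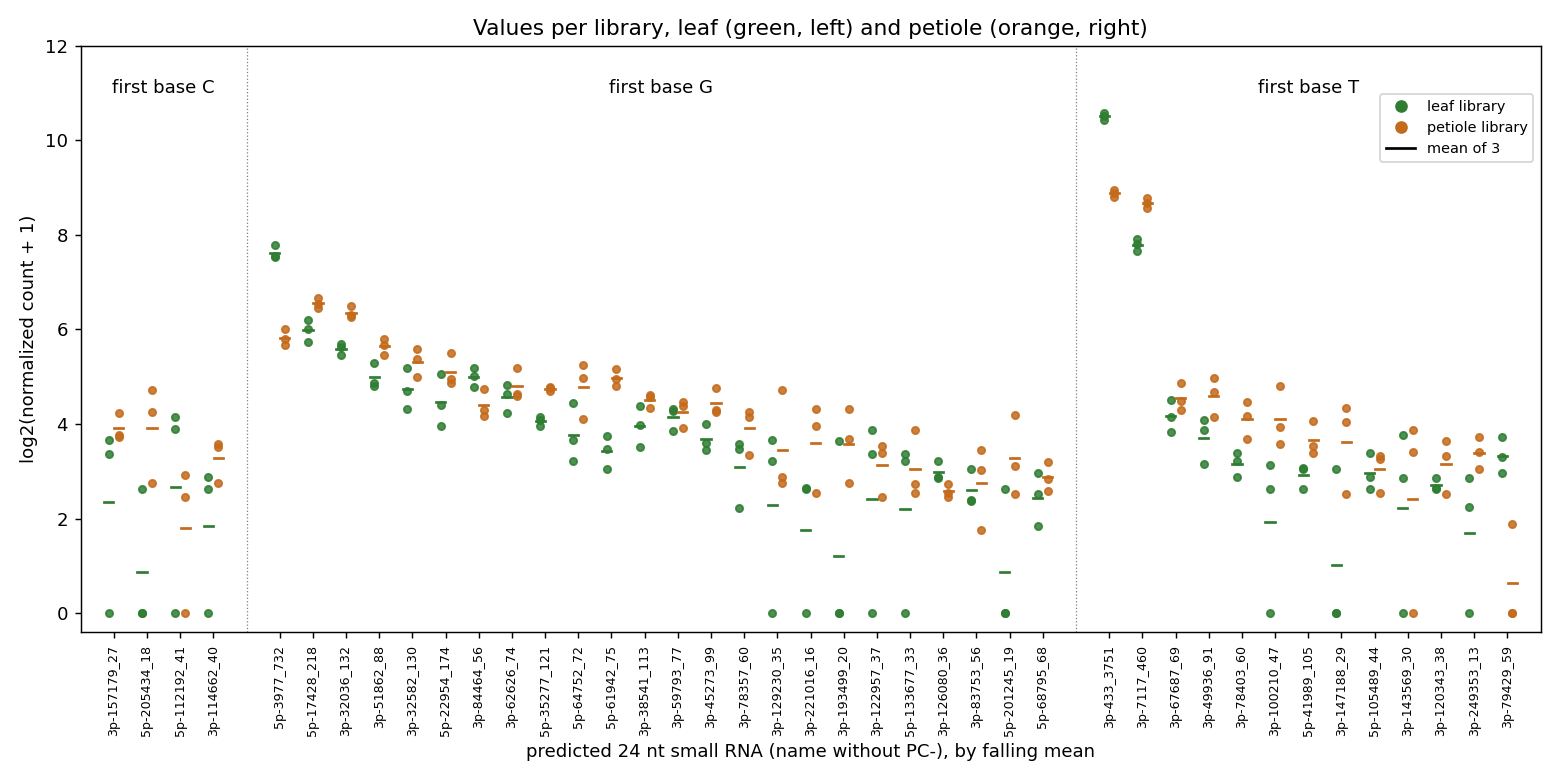
Normalized counts of 41 of the 42 sequences in every library, as log2(count + 1) on the vertical axis, with 3 leaf libraries in green, 3 petiole libraries in orange and short lines at the means of the log values. PC-3p-433_3751 and PC-5p-3977_732 have leaf values wholly above petiole values, PC-3p-7117_460 has the reverse, and many rare sequences have a leaf library listed at 0.

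Among the first bases, T stood highest in summed count through PC-3p-433_3751. The 14 T members summed to 1784 ± 47.6 in leaf and 1059 ± 13.6 in petiole, the 24 G members to 578 ± 25.6 and 643 ± 51.4, and the 4 C members to 22.7 ± 15.2 and 43.3 ± 12.5 (SD, n = 3 each). PC-3p-433_3751 alone held 67.9% of the T members' summed mean, and the leading G member, PC-5p-3977_732, held 20.7% of the G members'. Without PC-3p-433_3751 the direction of the T sum turned, to 324 ± 29.3 in leaf and 588 ± 21.9 in petiole. Without PC-5p-3977_732 the G sum was 382 ± 15.2 in leaf and 587 ± 56.4 in petiole, with no overlap between the tissues. With equal totals the full sums were 1385 ± 62.1 and 1487 ± 22.1 for T, and 449 ± 11 and 904 ± 90.1 for G.

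The C sum was low: 31.1, 5.21 and 31.8 in the leaf libraries and 47.3, 29.3 and 53.4 in petiole, so the tissues overlapped. With equal totals it was 24.1, 3.98 and 25.2 in leaf and 67.0, 40 and 76.3 in petiole, without overlap, and the ratio of petiole to leaf was 3.44 instead of 1.91. By single members the order was different, since the median mean count was 18 for G, 10.1 for T and 7.98 for C.

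**Figure D2:**
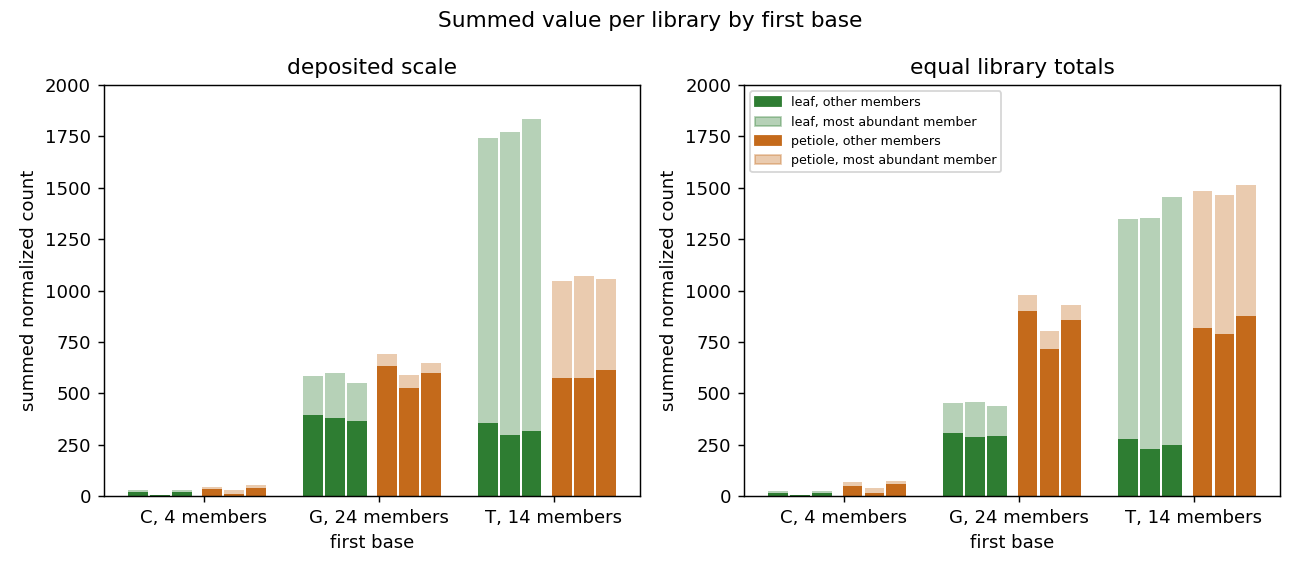
Summed normalized count of the C, G and T members in each library (bars, 3 leaf in green and 3 petiole in orange), on the deposited scale and with equal library totals; the pale part is the most abundant member of each first base. On the deposited scale the T bars are higher in leaf through PC-3p-433_3751, while the dark parts of the G and T bars are higher in petiole on both scales.

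Leaf and petiole differed in 13 of the 42 sequences, 10 higher and 3 lower in petiole, by limma on log2(count + 1) with adjusted p under 0.05 over 601 tested sequences. The 3 lower members include the leading T and the leading G sequence. Among all 601 tested sequences 49.6% were called, 21.3% higher and 28.3% lower, against 10 of 42 (23.8%) and 3 of 42 (7.14%) here. Most of the 42 are rare, and of the 415 tested sequences with a mean under 50, 19.0% were called higher and 15.7% lower. In that range the 37 members gave 7 higher (18.9%) and 1 lower (2.70%) call. The lower call, PC-3p-79429_59, reached the mean of 5 through leaf, and PC-5p-205434_18, among the higher calls, through petiole. The share called higher was near the background in both ranges, and the difference in the share called lower was not tested. All 3 petiole values lay above all 3 leaf values for 15 of the 42 and below them for 5, against 28.5% and 31.3% of all tested sequences, and the tissues overlapped for 22. The median log2 difference, petiole minus leaf, was 0.73 over the 42 and 0.18 over all tested sequences. Below a mean of 50 it was 0.74 over the 37 members and 0.40 over the 415 tested sequences. The 42 include 9 with a leaf mean under 5 and 3 with a petiole mean under 5, whose direction the rule fixes. The difference between the medians was not tested.

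The count of higher calls depended on the library scale and on single libraries. With equal totals 29 of the 42 were called higher and 3 lower, so that 90.6% of the calls were higher, against 76.9% on the deposited scale. All 9 members with a leaf mean under 5 are among the 29, and 1 of them among the 10; they reached the mean of 5 through petiole, which fixes their direction, so the 29 are no support for a rise. The background moved as well, to 71.2% called of all tested sequences, 53.4% higher and 17.8% lower, with a shift of their median log2 difference of 0.79. Below a mean of 50 it was 55.4% higher and 9.16% lower, against 26 higher (70.3%) and 1 lower of the 37 members. All 10 higher calls were called higher there too, which that scaling could not have reversed, and 8 of them were also called after quantile normalization, where 23.1% of all tested sequences were called higher and 24.1% lower. All 3 lower calls were called lower on all 3 scales, but PC-3p-79429_59 reached the mean of 5 through leaf, which fixes its direction. The higher calls fell to 4 without petiole replicate 1, to 4 without petiole replicate 3 and to 5 without leaf replicate 3. Called members that stayed called whichever library was left out were PC-3p-433_3751, PC-3p-7117_460, PC-5p-3977_732, PC-3p-32036_132, PC-5p-61942_75 and PC-3p-79429_59.

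**Figure D3:**
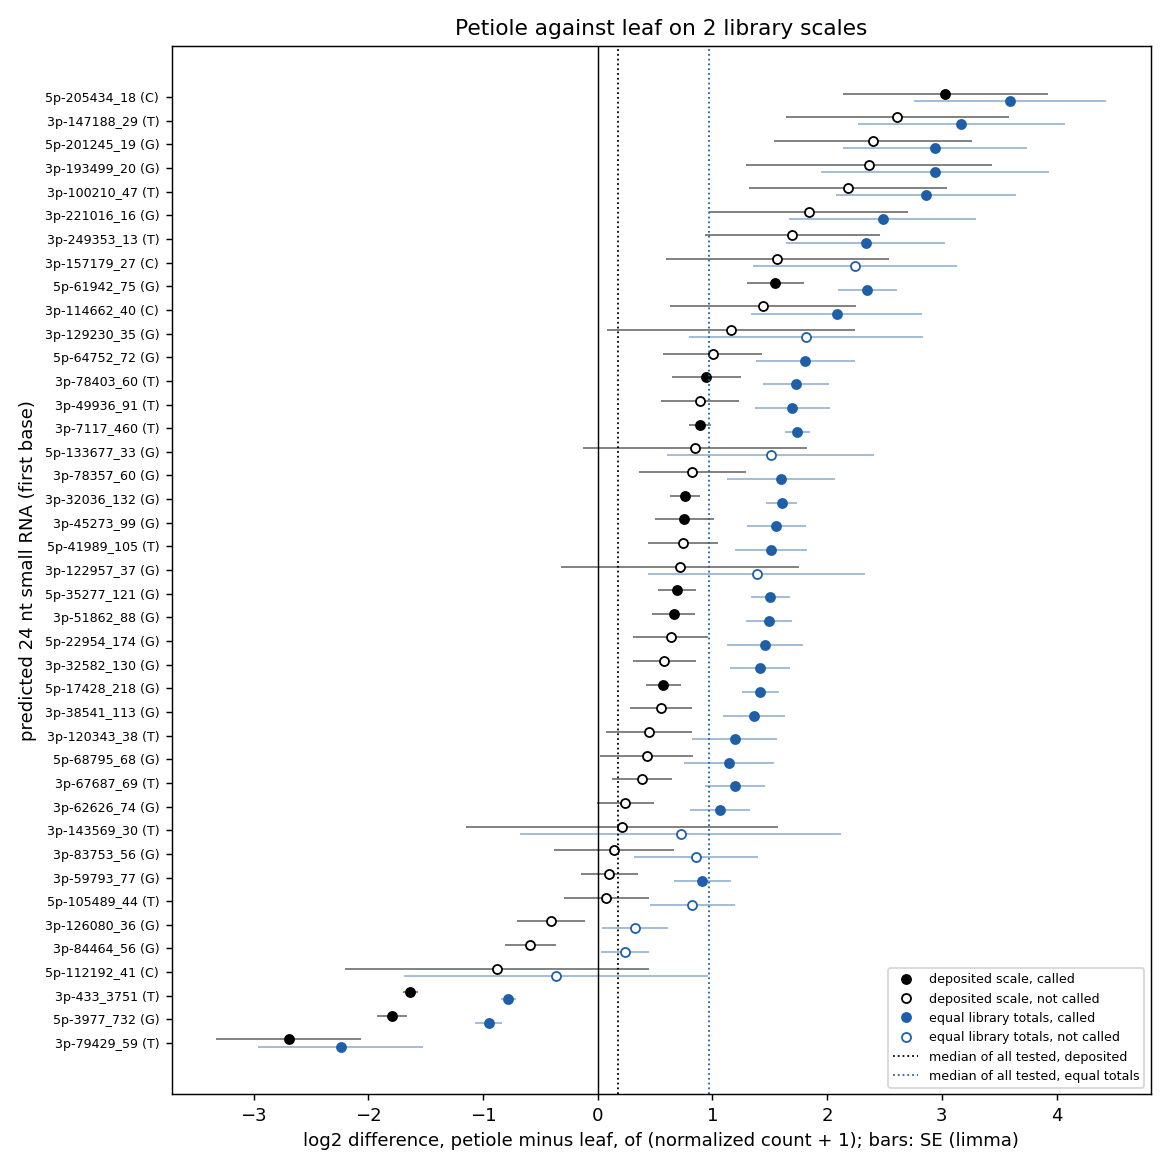
Log2 difference, petiole minus leaf, of 41 of the 42 sequences with its limma SE (bars), on the deposited scale (black) and with equal library totals (blue); filled points were called at an adjusted p under 0.05, and dotted lines mark the medians over all tested sequences, 0.18 and 0.97. Equal totals moved every point to the right, and PC-3p-433_3751, PC-5p-3977_732 and PC-3p-79429_59 stayed to the left of 0 and called.

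PC-3p-433_3751, the most abundant of the 42, was higher in leaf. Its counts were 1387, 1471 and 1521 in the leaf libraries and 471, 497 and 443 in petiole. The lowest leaf value was above the highest petiole value. The means were 1459 ± 67.6 and 470.3 ± 26.9 (SD, n = 3), 3.10 times higher in leaf, and the log2 difference was -1.63 ± 0.07 (SE, as for every log2 difference here; limma adjusted p = 4.5e-06). With equal totals the difference was -0.78. The partly complementary G member PC-3p-32036_132, which pairs with it over 16 bases, went the other way. It had 48.8, 42.7 and 50.8 in leaf and 89.8, 77.7 and 76.0 in petiole, a log2 difference of 0.76 ± 0.13 (limma adjusted p = 0.0027), and of 1.60 with equal totals. The ratio of PC-3p-433_3751 to PC-3p-32036_132 was 28.4 to 34.4 in the leaf and 5.24 to 6.39 in the petiole libraries, so it separated the tissues whatever the library scale. The last 8 bases of PC-3p-433_3751 lie outside the complementary run.

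PC-3p-7117_460, the second T member, was higher in petiole, and so was its complement. Its counts were 239, 200.1 and 222 in leaf and 408, 380.4 and 437 in petiole. The tissues did not overlap, and the log2 difference was 0.89 ± 0.10 (limma adjusted p = 0.00028), or 1.74 with equal totals. PC-5p-1834_1331, the A-starting strand, had 450.2, 449 and 461 in leaf and 755, 771 and 878 in petiole, with a log2 difference of 0.82 ± 0.07 (limma adjusted p = 0.00013). The A-starting strand was the more abundant in all 6 libraries. The ratio of the A-starting to the T-starting strand was 2.07 ± 0.18 in leaf and 1.96 ± 0.10 in petiole (SD, n = 3), with overlapping values.

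Rarer T members followed. PC-3p-49936_91 had 16.1, 13.6 and 7.94 in leaf and 24.6, 30.2 and 16.7 in petiole, without overlap, and did not pass (limma adjusted p = 0.0705). Reads of near-identical sequences may have been divided between entries, so the values of single members with such relatives are uncertain. PC-3p-78403_60 rose, from 8.30, 9.38 and 6.35 to 17, 21.1 and 11.8 (log2 difference 0.95 ± 0.30, limma adjusted p = 0.039). It remained called in 1 of the 6 fits without a library, and not after quantile normalization. With equal totals the difference was 1.73.

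PC-3p-79429_59 showed the largest fall of the 42 on the log2 scale and lay at the edge of the selection. It was counted at 6.74, 8.86 and 12.2 in leaf, and in petiole it was listed at 0, 0 and 2.71. The log2 difference was -2.69 ± 0.63 (limma adjusted p = 0.013), and -2.24 with equal totals. It reached the mean of 5 through leaf, which fixes its direction. Its mean was 5.08, the lowest of the 42, followed by PC-5p-68795_68 at 5.56. Just below the limit were PC-3p-156298_27 at 4.94, listed at 0 in all 3 leaf libraries, and PC-3p-196257_19 at 4.84, listed at 0 in 1 library of each tissue.

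The remaining T members did not pass on the deposited scale. The complementary members PC-3p-100210_47 and PC-5p-41989_105 both had higher values in petiole. PC-3p-100210_47 had 5.19, 7.82 and 0 in leaf and 26.9, 14.4 and 10.9 in petiole (log2 difference 2.18 ± 0.86, limma adjusted p = 0.077). PC-5p-41989_105 had 7.26, 5.21 and 7.41 in leaf and 9.45, 10.6 and 15.8 in petiole (0.74 ± 0.31, limma adjusted p = 0.087). For each strand the petiole values lay above the leaf values, and with equal totals both were called higher. The leaf mean of PC-3p-100210_47 was 4.33, so it reached the mean of 5 through petiole, which fixes its direction. PC-3p-67687_69 had 21.8, 16.7 and 13.2 in leaf and 21.3, 18.7 and 28.0 in petiole, which overlapped. PC-3p-143569_30 was listed at 0 in a library of each tissue and otherwise lay between 6.25 and 13.6. PC-3p-147188_29, which shares 19 bases with the G member PC-3p-51862_88, had 7.26, 0 and 0 in leaf and 4.73, 19.2 and 15.4 in petiole, which overlapped (limma adjusted p = 0.065). PC-3p-249353_13 had 6.22, 0 and 3.71 in leaf and 12.3, 9.59 and 7.23 in petiole, without overlap (limma adjusted p = 0.11). PC-3p-147188_29 and PC-3p-249353_13 also had leaf means under 5 and reached the mean of 5 through petiole. The last T members, PC-5p-105489_44 and PC-3p-120343_38, had overlapping values between 4.73 and 11.5.

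**Figure D4:**
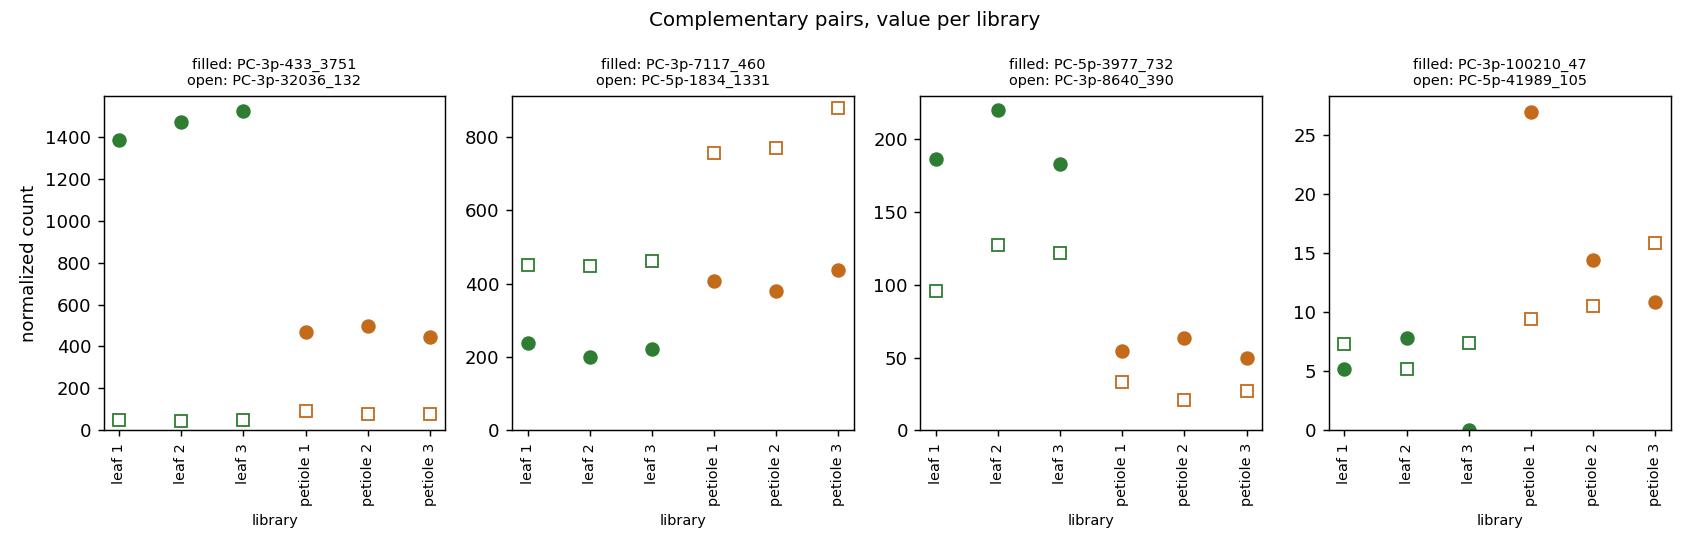
Normalized count per library of 4 complementary pairs (filled circles for the first name, open squares for the second; leaf green, petiole orange; linear axes from 0). Both sequences were higher in petiole for the pair of PC-3p-7117_460 and in leaf for that of PC-5p-3977_732, while PC-3p-433_3751 and PC-3p-32036_132 differed in opposite directions.

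Among the G members, the most abundant fell and 6 rose in petiole. PC-5p-3977_732 had 187, 219.9 and 183 in leaf and 54.8, 63.3 and 49.7 in petiole. The tissues were well apart, with 3.51 times more in leaf, and the log2 difference was -1.80 ± 0.13 (limma adjusted p = 4.1e-05). With equal totals the difference was -0.95. Its A-starting partner PC-3p-8640_390, which pairs at 20 of 22 positions, followed the same pattern, with 95.4, 127 and 122 in leaf and 33.1, 21.1 and 27.1 in petiole (log2 difference -2.05 ± 0.20, limma adjusted p = 0.00019). PC-5p-3977_732 was the more abundant sequence in all 6 libraries, by 1.5 to 3.0 times.

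The largest called rise of a G member was that of PC-5p-61942_75. It had 12.4, 7.29 and 10.1 in leaf and 35, 26.9 and 29.8 in petiole, a mean 3.08 times higher in petiole (log2 difference 1.55 ± 0.25, limma adjusted p = 0.0022), and with equal totals the difference was 2.35. The tissues did not overlap, and the call stood in all 6 fits without a library. PC-5p-17428_218 rose by less, from 72.6, 52.1 and 63.5 in leaf to 101, 86.3 and 92.2 in petiole (log2 difference 0.57 ± 0.15, limma adjusted p = 0.020). It did not overlap between tissues, but 3 of the 6 fits without a library lost the call. PC-3p-51862_88 had 28.0, 27.1 and 38.1 in leaf and 54.8, 43.2 and 50.2 in petiole (0.66 ± 0.19, limma adjusted p = 0.026), and 4 of the 6 fits lost it. PC-3p-45273_99 was barely past the threshold (0.75 ± 0.26, limma adjusted p = 0.049), and 5 of the 6 fits lost it. With equal totals the differences were 1.42 for PC-5p-17428_218, 1.495 for PC-3p-51862_88 and 1.56 for PC-3p-45273_99, all called.

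For PC-3p-45273_99 the sequences next to it on the same and the opposite strand were not called. It had 15, 9.90 and 11.1 in leaf and 26.0, 18.7 and 18.1 in petiole. The A-starting PC-3p-26657_154, 1 base upstream, had 23.3, 25.0 and 13.2 in leaf and 20.3, 23.5 and 16.3 in petiole, with a log2 difference of 0.00 ± 0.30. The opposite strand PC-5p-37036_117 had a log2 difference of 0.11 ± 0.28. Neither passed the test, and whether they differ from PC-3p-45273_99 in their change was not tested.

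The G members PC-5p-35277_121 and PC-3p-78357_60 belong to a wide group of related sequences. Linked by shared runs of at least 16 bases on either strand, the group held 89 sequences, 4 of them members, and included entries named miR9563. PC-5p-35277_121 had 14.5, 16.7 and 15.9 in leaf and 26.5, 24.9 and 26.2 in petiole, without overlap (log2 difference 0.69 ± 0.17, limma adjusted p = 0.015). The call was lost without petiole replicate 3, and with equal totals the difference was 1.504. Its complement over all 24 bases, the A-starting PC-3p-60771_76, had 3.63, 3.65 and 4.77 in leaf and 14.2, 10.1 and 15.4 in petiole (1.49 ± 0.30, limma adjusted p = 0.0063). The tissues did not overlap, but its leaf mean was under 5, so it too reached the tested range through petiole. The complement over 23 bases, PC-3p-78357_60, had 10.9, 3.65 and 10.1 in leaf and 18, 9.11 and 16.7 in petiole, which overlapped, and did not pass (0.83 ± 0.47). It is also complementary over 24 bases to bra-miR9563a-5p_L+3_2ss5CA17TC, and over 19 bases to bra-MIR9563b-p5_1ss5TC. The latter was more abundant, at 206 ± 22.1 in leaf and 264 ± 21.2 in petiole (SD, n = 3). The other members of the group, PC-3p-67687_69 and PC-3p-193499_20, did not pass.

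The other 17 G members did not pass on the deposited scale. PC-3p-84464_56 was the only one of these with a mean above 20 and lower values in petiole, 31.1, 35.4 and 26.5 in leaf against 17, 25.9 and 18.5. The tissues did not overlap, but the adjusted p was 0.068 by limma, and with equal totals the difference of -0.59 turned to 0.23. PC-3p-38541_113, whose complement is perfect over 24 bases, had 10.4, 19.8 and 14.8 in leaf and 22.7, 19.2 and 23.5 in petiole and overlapped. Its opposite strand PC-5p-213506_17 was listed at 0 in 3 libraries and at 4.80 to 6.22 in the others. PC-3p-32582_130 was the most abundant of the 17, with 35.3, 25.0 and 19.1 in leaf and 40.6, 47 and 30.8 in petiole, which overlapped. PC-5p-64752_72 had 8.30, 20.8 and 11.7 in leaf and 30.2, 16.3 and 37.1 in petiole (log2 difference 1.0, limma adjusted p = 0.097), and also overlapped. PC-5p-201245_19 came nearest to the threshold, with 5.19, 0 and 0 in leaf and 4.73, 7.67 and 17.2 in petiole (limma adjusted p = 0.058). PC-3p-126080_36 was wholly lower in petiole, at 6.22, 8.34 and 6.35 in leaf and 5.67, 4.80 and 4.52 in petiole, a gap of less than 1 step. Of the 17, 11 were called higher with equal totals and none lower. PC-3p-221016_16, PC-3p-193499_20, PC-5p-201245_19 and PC-5p-68795_68 are among the 11 and had leaf means under 5. They reached the mean of 5 through petiole, which fixes their direction.

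The 4 C members were all rare and each was listed at 0 in at least 1 leaf library. PC-5p-205434_18 was called higher in petiole, with 0, 5.21 and 0 in leaf and 18, 5.76 and 25.3 in petiole (log2 difference 3.03 ± 0.89, limma adjusted p = 0.030). Its leaf mean was under 5, so it reached the mean of 5 through petiole, which fixes its direction. Its highest leaf and lowest petiole value, 5.21 and 5.76, were less than 1 step apart, and 4 of the 6 fits without a library lost the call. The 23 nt PC-5p-42641_104, which shares 18 bases with it, had 36.3, 27.1 and 13.8 in leaf and 35.9, 64.3 and 49.7 in petiole and did not pass (limma adjusted p = 0.074). PC-3p-157179_27 had 9.34, 0 and 11.7 in leaf and 12.3, 17.8 and 12.7 in petiole, above the leaf values but without passing (1.57 ± 0.97). PC-3p-114662_40 had 5.19, 0 and 6.35 in leaf and 10.4, 5.76 and 10.9 in petiole, which overlapped. It passed with equal totals only, at a log2 difference of 2.08. Its leaf mean was also under 5, so it too reached the mean of 5 through petiole.

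PC-5p-112192_41 was the C member with lower values in petiole. It had 16.6, 0 and 13.8 in leaf and 6.62, 0 and 4.52 in petiole, which overlapped (log2 difference -0.88 ± 1.32). The 21 nt PC-5p-5041_607, which is the same sequence without the first 3 bases, fell from 79.4, 108 and 90.5 in leaf to 10.9, 10.6 and 14 in petiole (-2.87 ± 0.19, limma adjusted p = 2.6e-05). In the libraries that list both, the 21 nt form was 1.64 to 6.58 times as abundant. A 22 nt sequence, PC-5p-50543_90, lacks only the first 2 bases and was also lower in petiole (-2.49 ± 0.63, limma adjusted p = 0.017). Its petiole mean was 2.01, so it reached the mean of 5 through leaf, which fixes its direction.

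More values were listed at 0 in leaf than in petiole. Of the 42 sequences, 27 were listed above 0 in all 6 libraries, and none was listed at 0 in every library of a tissue. A leaf library was at 0 for 14 members and a petiole library for 3, with 2 members counted in both. Per library, 39, 34 and 35 of the 42 were listed in leaf and 40, 40 and 42 in petiole. In leaf 7.14%, 19.0% and 16.7% of the 42 were at 0, against 9.98%, 11% and 7.49% of all tested sequences. In petiole 4.76%, 4.76% and 0% were, against 8.32%, 7.32% and 6.16%. The 42 were thus above all tested sequences in leaf replicates 2 and 3 only, and these shares depend on the rule. In leaf replicate 2, 1 of 4 C, 21 of 24 G and 12 of 14 T members were listed. All 24 G members were listed in each petiole library. For 9 members the leaf mean was under 5 and for 3 the petiole mean was, so that these passed the selection through the other tissue. Of the 33 sequences below the mean of 5, 15 were at 0 in all leaf libraries and 1 in all petiole libraries.

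Overlapping and complementary sequences were common among the 42. On the same strand 16 members (38.1%) shared at least 16 bases with another sequence, 3 with C, 6 with G and 7 with T. On the opposite strand 23 members (54.8%) did, 1 with C, 14 with G and 8 with T. Among the 135 predicted 24 nt sequences that start with A and reached the same mean, the shares were 38.5% and 42.2%, and the difference was not tested. Members with neither kind of partner numbered 14, and 11 had both. The partner with the longest same-strand run started with A for 10 of 16 members and was the more abundant for 6. The partner with the longest opposite-strand run started with A for 13 of 23. Of the 357 predicted 24 nt sequences of any mean, 282 start with A, and a preference for such partners was not tested. Among pairs of 24 nt sequences that were complementary along their whole overlap, 4 were blunt, 5 had 3′ overhangs of 1 base and 3 of 2 bases. Overhangs of 4, 6, 7 and 8 bases occurred in 3, 1, 2 and 7 such pairs. All 7 pairs with 8 bases hold PC-3p-67687_69, matched to related sequences that include entries named miR9563. They therefore do not describe the 42 as a whole. With a minimum run of 16 bases, 8 is also the longest 3′ overhang that could be found. The remaining pairs were recessed at the 3′ ends.

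Base composition is given as a description. The median GC content was 41.7% over the 42, 37.5% for G, 43.8% for T and 41.7% for C, against 37.5% in the A-starting list. It ranged from 20.8% in PC-5p-3977_732 to 66.7% in PC-3p-32036_132. The last base was T in 19, C in 16, A in 6 and G in 1 of the 42, and T in 67, C in 49, A in 16 and G in 3 of the 135.

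Similar lists are set beside the 42 by their counts. The A-starting list gave 16 higher and 2 lower calls of 135, with a median log2 difference of 0.44. The 58 tested 24 nt entries with names of known families gave 13 higher and 5 lower, with a median of 0.43. Predicted sequences of 20 to 22 nt gave 15 higher and 26 lower of 75, with a median of -0.35. With equal totals these medians were 1.24, 1.24 and 0.50, and 1.51 for the 42. By first base the calls were 1 higher of 4 for C, 6 higher and 1 lower of 24 for G, and 3 higher and 2 lower of 14 for T, with medians of 1.51, 0.68 and 0.82 on the deposited scale. None of these differences between lists was tested, and the lists differ in abundance.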

How the data were processed

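Per the labels' protocols, Trizol RNA of 3 leaf and 3 petiole samples went into TruSeq small RNA libraries read on an Illumina HiSeq. ACGT101-miR removed adapter dimers, junk, low-complexity reads, repeats and common RNA families, per the labels' protocols. Because repeats were removed, repeat-derived small RNAs may be undercounted. The deposited signal values are normalized counts, per the file headers. Aligner, genome build and the library factors remain not given in the sources used here, so the effect of scaling can only be bracketed. The labels' protocols speak of more libraries than the 6 analysed here, and others may have entered the same normalization. Low values lay on a regular step, but only 71.4% to 77.1% of values under 60 were whole steps within 0.02, and 98.4% to 99.7% multiples of 0.5 steps. Some values were below 1 step, with the lowest at 0.579. Whole reads were not recovered and no count model was run.

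Of 1069 entries, 58 repeated a sequence with the same values and were merged. The limma package (3.58.1, under R 4.3.3) was fitted to log2(value + 1) of 601 sequences with a mean of at least 5. It used a mean-variance trend, two-sided tests and Benjamini-Hochberg adjustment. Log2 differences of low values depend on the added number: that of PC-5p-205434_18 was 3.68 with 0.5, 3.03 with 1 and 1.625 with 5. A library listed at 0 can enlarge them. PC-3p-122957_37, listed at 0 in a leaf library, had a log2 difference of 0.72, although its petiole mean was 1.07 times its leaf mean. Tissues were taken from the labels. Whether replicates were separate plants is not stated; the p-values then cover only differences among these libraries, perhaps technical ones. Replicates correlated at 0.936 to 0.960 across tested sequences, which are not independent replicates. The script was tested on simulated data. Alternatives were equal totals, quantile normalization, other pseudocounts and filters, no trend, a replicate block and leaving out each library.

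The members and lists were chosen with earlier results of these data known. Named sequences were the 3 most abundant per first base, the called non-overlapping members with the 5 largest rises and the largest falls, members of the 4 most abundant linked groups and those at the limit of the mean; others were chosen after their values were seen. No genome was used, so positions are not given. The sequence and values of 1 member are not reported here; it stays in the counts, sums and medians.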

Additional observations from a re-analysis of the deposited data

How the results depend on the processing

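The number of members called higher was 10 on the deposited scale, 29 with equal totals, and 4 to 10 when 1 library was left out. The lower calls were 3, except for 2 at a mean of at least 10 and 4 without petiole replicate 2. When a library was left out, the calls over all tested sequences ranged from 245 to 284. The sum of the T members, 0.594 in petiole over leaf, became 1.07 with equal totals and 1.81 without PC-3p-433_3751; that of all 42, 0.732, became 1.32 and 1.38. Members sharing a same-strand run of at least 16 bases were 16, against 24 at 14 bases and 10 at 20 bases. Those with an exact complement of at least 16 bases were 23, against 34 at 12 bases and 17 at 20 bases. By another rule, duplexes with 2-base overhangs and up to 4 unpaired of 22 positions, 10 members had a partner; this rule admits members without an exact complement of 16 bases. Members that were not called changed sign in places: with equal totals PC-3p-84464_56 (0.23) and PC-3p-126080_36 (0.33); after quantile normalization PC-3p-59793_77 (-0.057), PC-3p-83753_56 (-0.18), PC-5p-68795_68 (-0.037) and PC-5p-105489_44 (-0.19). Without 1 library the log2 difference ranged from -2.21 to 0.023 for PC-5p-112192_41, -0.044 to 0.27 for PC-3p-59793_77, -0.49 to 1.44 for PC-3p-122957_37, -0.25 to 1.43 for PC-5p-133677_33, -0.21 to 0.63 for PC-3p-83753_56, -0.090 to 0.33 for PC-5p-105489_44 and -0.89 to 1.42 for PC-3p-143569_30. The cause of these changes was not tested. Same-numbered libraries did not deviate together (correlations 0.073, 0.0067 and 0.0076 across sequences), so the numbers were not taken as pairs; with the replicate block 9 members were called higher and 3 lower, 9 of the 13 main calls among them. Low values of the 19 members with a mean under 10 limit what could be detected.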
